A study of Danio rerio with 2 samples.

Results

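Betaglycan, encoded by *tgfbr3*, and the activin-inhibin pathway were followed across the cells of the zebrafish pituitary through 10 of the 32057 genes listed in the count tables. The 10 genes were taken by symbol: the co-receptor gene *tgfbr3* (ENSDARG00000099979), the ligand subunit genes *inhbaa* (ENSDARG00000012671), *inhbab* (ENSDARG00000024759) and *inhbb* (ENSDARG00000040777), the antagonist gene *fsta* (ENSDARG00000052846), the type II receptor genes *acvr2aa* (ENSDARG00000011188) and *acvr2ba* (ENSDARG00000044422), the type I receptor gene *acvr1ba* (ENSDARG00000018968), the signal transducer gene *smad3a* (ENSDARG00000036096) and the pseudoreceptor gene *bambia* (ENSDARG00000055381). They were selected with the level of *tgfbr3* in *fshb*-expressing cells already known, so the relation of *tgfbr3* to the *fshb* share is given as a description without a test.

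Single pituitary cells were profiled by droplet RNA sequencing, in which each unique molecular identifier (UMI) marks 1 captured transcript. One library came from wild-type (WT) zebrafish and 1 from *cck1*-/-;*cck2*-/- double mutants (CCK1/2-KO), which lack both genes for cholecystokinin, a peptide of the brain and gut. All fish were males 6 months old, with 30 fish per genotype by the study's methods, so that each genotype was 1 pooled sample. With 1 library per genotype no test between genotypes was possible, and the 95% intervals given here reflect the counting of UMIs alone. After filtering, 4864 WT cells with 21746265 UMIs and 3458 mutant cells with 15380134 UMIs were kept. Their median depths were 882 and 982.5 UMIs, with 63.8% and 64.2% of cells under 2000 UMIs, and the libraries shared 11 cell barcodes.

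Activins are dimers of inhibin beta subunits that bind type II and then type I receptors, and SMAD2 and SMAD3 carry the signal to the nucleus. In mammals, activin made within the pituitary raises transcription of the FSH beta gene, follistatin traps activin, and gonadal inhibin lowers FSH. Betaglycan, known mainly as a co-receptor of TGF-beta, also binds inhibin and lets it hold the activin type II receptors away from activin.

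Gonadotropin-bearing (gonadotropin-rich) cells were defined as those in which *lhb* and *fshb*, the beta subunit genes of LH and FSH, together made up at least 1% of UMIs. The WT library held 101 such cells and the mutant library 19. By the *fshb* share of *lhb* plus *fshb* UMIs, 72 WT cells were LH-rich (under 10%), 22 were mixed (10 to 90%) and 7 were FSH-rich (over 90%), while all 19 mutant cells were LH-rich. In a clustering that left out the hormone genes and the 10 genes, 67 LH-rich, 14 mixed and all 7 FSH-rich WT cells fell into cluster 16. This gonadotrope-like cluster was led by *nr5a1b*, a transcription factor gene of gonadotropes, *lhb* and CGA, the shared alpha subunit gene. A further 21 WT and 2 mutant cells of that cluster lay below the 1% gate. The mutant library held 34 *fshb* UMIs in 12 cells (2.21 CPM, counts per 1000000 UMIs) against 8776 in 514 cells (404 CPM) in WT, so *tgfbr3* in FSH-rich cells could be described in WT alone. In the other WT hormone clusters, those rich in *gh1*, *prl* or *pomca*, *lhb* was found in 34.3% of cells at 50.1 CPM, and where these UMIs came from was not tested.

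Betaglycan *tgfbr3* was at its highest level in the FSH-rich cells. All 7 held it, at 2613, 3939, 4063, 5048, 9535, 14407 and 15403 CPM, from 10 to 237 UMIs per cell. The least of these values belonged to the cell with the lowest *fshb* share of the class (95.5%), and the highest pair to cells at 99.3% and 99.7%, while the cells at 100% stood at 5048 and 9535 CPM. Summed over the 7 cells, 641 UMIs gave 9087 CPM (95% interval 8397 to 9819), and 7469 CPM without the cell that held 37.0% of them.

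The LH-rich cells carried the transcript at a lower level and less evenly. Their per-cell values ran from 0 through a median of 733 to 13514 CPM, with 18 of 72 cells at 0, 32 over 1000 and 9 over 3000. Of these cells, 15 had under 1000 UMIs, against 0 of the FSH-rich cells, and shares at equal depth are given below. In sum, 1137 UMIs gave 1338 CPM (1261 to 1418). The ranges of the classes therefore overlapped cell by cell, while the sum was higher in FSH-rich cells by 2.76 on the log2 scale (2.62 to 2.90). The ratio was 2.05 with cuts at 80 and 20% and 1.61 with 1 cut at 50%, and the level above the cut was then 5551 and 4667 CPM. The mixed cells lay between, with 471 UMIs and 3002 CPM (2737 to 3285) in sum, a median of 980 CPM and 8 of 22 cells at 0. The class was shallow, with 8 cells under 1000 UMIs. One mixed cell held 182 of the 471 UMIs, and without it the level was 2078 CPM.

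**Figure D1:**
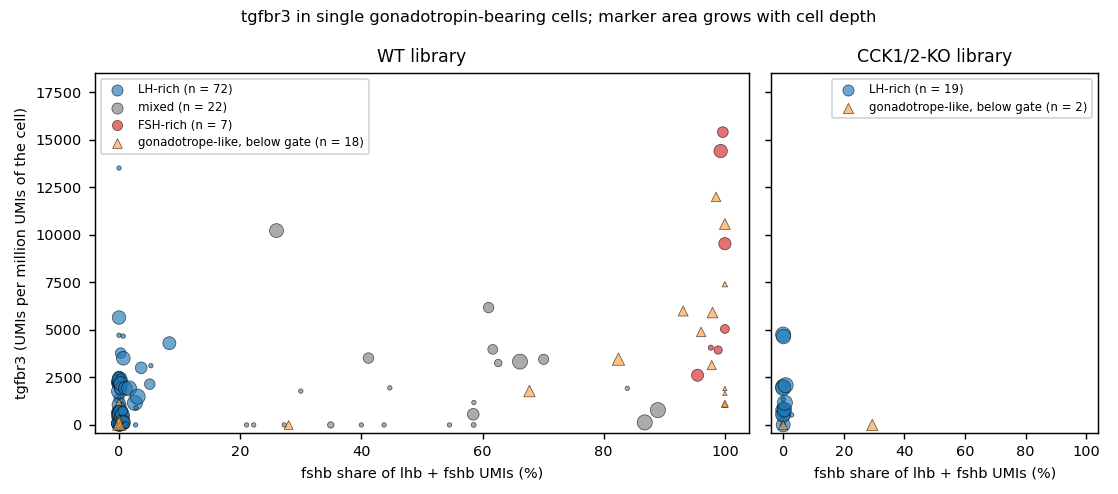
*tgfbr3* level of single cells (vertical axis, CPM of the cell) against the *fshb* share of *lhb* plus *fshb* UMIs (horizontal axis, percent), WT left and CCK1/2-KO right; each point is 1 cell, triangles are gonadotrope-like cells below the 1% gate, and marker area grows with depth. The 7 FSH-rich WT cells lie between 2613 and 15403 CPM, whereas LH-rich cells spread from 0 to 13514 CPM.

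The course along the *fshb* share was not even. Sums were 1210 CPM in 61 cells with a share up to 1%, 1981 CPM in 11 cells from 1 to 10%, 6038 CPM in 10 cells from 10 to 50%, 2073 CPM in 12 cells from 50 to 90% and 9087 CPM over 90%. The 10 to 50% value came from shallow cells with a median of 595 UMIs, of which 4 held the transcript and 1 held 182 UMIs. Over the 101 cells, which are all of 1 library, Spearman's rho between the share and *tgfbr3* per cell was 0.34, and it was 0.47 in the 71 cells with at least 2000 UMIs. Depth itself had a rho of 0.29 with *tgfbr3* over all 101 cells and 0.00 over those 71. At the upper cut, the nearest cells below (shares 86.8% and 88.9%) were at 132 and 780 CPM, and the nearest above (95.5% and 97.7%) at 2613 and 4063 CPM. Next to the lower cut, cells at 5.26% and 8.31% were at 3115 and 4299 CPM, and the nearest cells above it, with 581 and 561 UMIs, were at 0.

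Gonadotrope-like cells that fell short of the gate carried *tgfbr3* as well. Of the 21 WT cells, 18 held it, with 524 UMIs and 3834 CPM (3513 to 4177) in sum. Those with an *fshb* share over 50% numbered 13, and all 13 held *tgfbr3*, from 1072 through a median of 3465 to 11995 CPM, beside 1 to 68 *fshb* UMIs each. The 5 cells with a share of at most 50% gave 8 UMIs and 234 CPM (101 to 462). The remaining 3 cells had no *lhb* or *fshb* UMI, and 2 of them held *tgfbr3*, with 18 UMIs and 1827 CPM (1083 to 2888) in sum. This split at 50% was made after the values were seen, and since *tgfbr3* was selected for its level in *fshb*-expressing cells it lends no independent support. The nearest cells inside the gate (1.13 to 1.22% gonadotropin UMIs) were at 132, 1921 and 3975 CPM and the nearest outside it (0.791 to 0.903%) at 0, 0 and 11995 CPM.

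The share of cells with at least 1 *tgfbr3* UMI was 100% of the FSH-rich cells (exact binomial interval 59.0 to 100%, median depth 10712 UMIs) and 75.0% of the LH-rich cells (median depth 11004 UMIs). Each cell with at least 1000 UMIs was also thinned to that depth, and shallower cells were left out of the thinned shares here and below. These shares were then 98.7% of the 7 FSH-rich cells and 55.1% of 57 LH-rich cells. For background, 3 of the 143 *pomca*-rich cells held a *tgfbr3* UMI (median depth 9104 UMIs, 0.238% of 109 cells after thinning). Across all *gh1*-, *prl*- and *pomca*-rich WT cells the share was 13.2% of 516 cells (median depth 11168 UMIs, 3.92% of 458 cells after thinning), at 37.6 CPM (33.0 to 42.7).

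The cholecystokinin receptor gene listed as CCKBR was found in 4 of the 7 FSH-rich cells, 2 of the 22 mixed cells, none of the 72 LH-rich cells and 4 of the 21 WT cells below the gate. Every one of these 10 cells also held *tgfbr3*. Regardless of CCKBR, *tgfbr3* was in all 7 FSH-rich cells, 14 of the 22 mixed cells and 18 of the 21 below the gate. Nothing is therefore read from this overlap, and the part of depth was not tested. A receptor gene for gonadotropin-releasing hormone, *gnrhr2*, was found in 19 of the 72 WT LH-rich cells and 1 of the 22 mixed cells. It was in none of the 7 FSH-rich cells, the 21 WT cells below the gate or the 19 mutant LH-rich cells. With 7 FSH-rich cells, its absence there is not read as a difference.

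Outside gonadotropes, *tgfbr3* was highest in cells with markers of connective tissue. The mesenchymal-like clusters 21 and 7, led by collagen and matrix genes such as *lum* and *col1a2*, reached 611 CPM (527 to 705) and 476 CPM (435 to 521), followed by cluster 17, led by *rx3* and *sfrp5*, at 424 CPM (380 to 472). The last pair overlapped within counting error. T or NK-like cells were at 167 CPM, oligodendrocyte-like cells at 154 CPM, cluster 8, led by *mb* and *plvapa*, at 99.0 CPM, *prl*-rich cells at 88.5 CPM and *gh1*-rich cells at 22.8 CPM. The *pomca*-rich cluster was lowest of these 3 hormone clusters, with 3 UMIs in 143 cells (2.17 CPM).

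**Figure D2:**
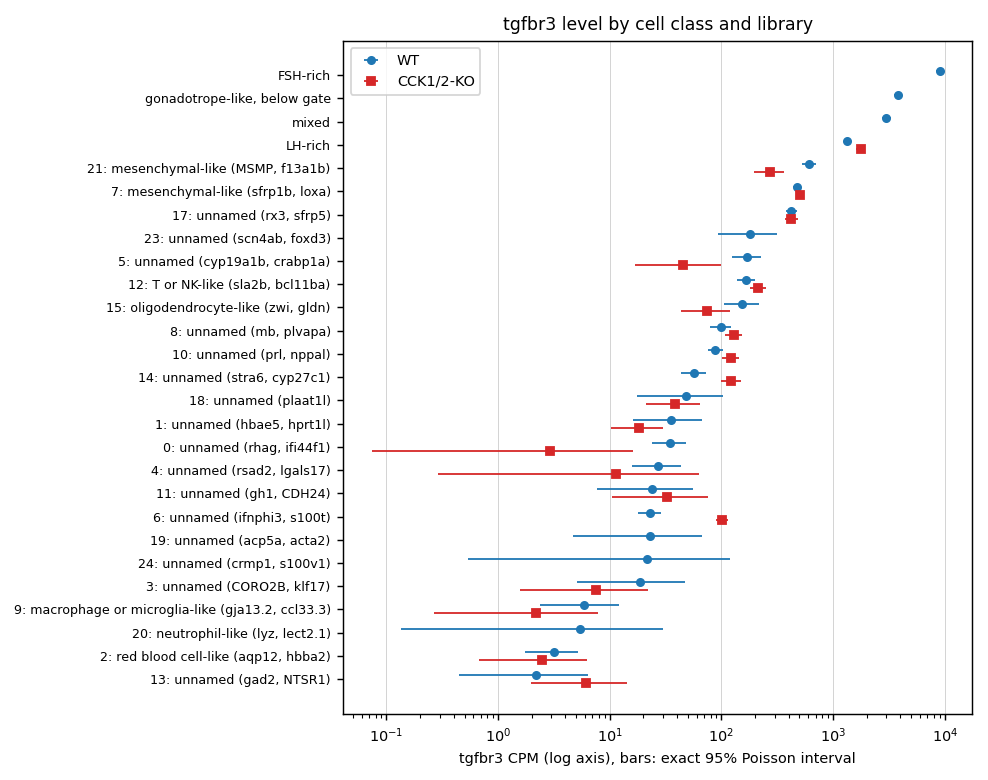
*tgfbr3* level (CPM, log axis) by cell class and library, with points for sums over cells and bars for exact 95% Poisson intervals; a class without a value is one with few or no such cells, or no UMI. FSH-rich WT cells stand at 9087 CPM and LH-rich cells at 1338 CPM in WT and 1762 CPM in CCK1/2-KO.

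By likeness over 27 WT cell classes, as Pearson's r of log2(CPM + 1) among 2849 genes, the genes nearest to *tgfbr3* were ENSDARG00000095272 (0.80), *ppdpfb* (0.80), *nrip2* (0.79), ENSDARG00000036272 (0.78) and *nos1* (0.77), the gene of neuronal nitric oxide synthase. Of these, *ppdpfb* stood at 3728 CPM in FSH-rich, 2473 in mixed and 451 in LH-rich cells, and *nos1* at 284, 95.6 and 44.7 CPM. Levels fell in the same order for ENSDARG00000095272 (539, 134 and 85.9 CPM). The level of *nrip2* was instead highest in mixed cells (241, 389 and 148 CPM). That of ENSDARG00000036272 was lowest in mixed cells (85.06, 44.61 and 60.01 CPM). The classes share 1 library, and *tgfbr3* was selected for its level in some of them, so the values describe and do not test a shared pattern.

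Few UMIs of the activin subunit genes were found in the gonadotropes themselves. No *inhbaa* UMI, which codes for the beta A subunit, was counted in the 101 WT or the 19 mutant gonadotropin-bearing cells, and a count of 0 allows up to 2.78 and 9.95 CPM. The transcript was in the mesenchymal-like clusters 21 (375 CPM, 310 to 450) and 7 (360 CPM, 324 to 399) and in cluster 8 (120 CPM, 98 to 145). The 368 UMIs of cluster 7 came from 24 of 121 WT cells, and 1 of 11 positive cells held 51.7% of the 116 UMIs of cluster 21. In the mutant library the same clusters stood at 241, 214 and 151 CPM. Without the top cell of each they were at 67.3, 121 and 115 CPM in the mutant and at 204, 284 and 86.6 CPM in WT. The top mutant cell of cluster 21 held 74.4% of its UMIs. The gene *inhbb* for the beta B subunit was rare, with 111 WT and 72 mutant UMIs in all kept cells, and among classes of at least 20 cells was highest in cluster 17, at 35.5 CPM in both libraries, from 28 and 19 UMIs. Of these, 2 UMIs in 1 mutant cell were in gonadotropin-bearing cells and none in WT. The other beta A gene, *inhbab*, had 4 WT and 10 mutant UMIs in all, 1 of each in gonadotropin-bearing cells (0.93 and 3.32 CPM), and a further listing named INHBB had none.

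Follistatin *fsta* rested on a handful of cells. The WT library held 45 UMIs in 6 cells, 32 of them in 1 cell of cluster 21, and the mutant library 53 UMIs in 5 cells, 46 of them in 1 cell. No UMI was in a gonadotropin-bearing cell of either library. The pseudoreceptor gene *bambia*, whose product resembles a type I receptor without a kinase, was at 63.5 CPM in WT and 85.9 CPM in CCK1/2-KO in cluster 17, the highest levels among classes of at least 20 cells, and at 139 and 202 CPM in the 10 WT and 15 mutant cells of cluster 25, led by *fgfbp2b* and *col2a1a* (9 and 27 UMIs). It had 4 UMIs in the WT gonadotropin-bearing cells and 0 in the mutant ones.

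The receptor genes for activin were spread over the hormone cells and other clusters. Among classes of at least 20 cells, the type II receptor gene *acvr2aa* was highest in oligodendrocyte-like cells (119 CPM in WT, 109 CPM in the mutant). This WT level (76.2 to 177) was within counting error of the gonadotrope-like cells below the gate (110 CPM, 61.4 to 181). The gene stood at 85.1 CPM in FSH-rich cells (6 UMIs in 4 of 7 cells), 108 CPM in mixed cells and 56.5 CPM in LH-rich cells (48 UMIs in 24 of 72 cells). FSH-rich over LH-rich cells gave 0.59 on the log2 scale with an interval from −0.93 to 1.82. The other type II gene, *acvr2ba*, had 9 UMIs in LH-rich cells (10.6 CPM) and none in FSH-rich cells, which allows up to 42.5 CPM. Mixed cells held 5 UMIs (31.9 CPM, 10.3 to 74.4) and the WT cells below the gate 3 (22.0 CPM). The other WT hormone clusters were at 17.5 CPM. The type I gene *acvr1ba* stood at 12.9 CPM in LH-rich cells, with 1 UMI in FSH-rich cells and 1 in the WT cells below the gate. Mixed cells were at 63.7 CPM (30.6 to 117), from 10 UMIs in 5 of 22 cells, and the other hormone clusters at 33.3 CPM. In single WT gonadotropin-bearing cells, the 75 with *tgfbr3* included 32 with *acvr2aa*, 16 with *acvr1ba*, 11 with *acvr2ba* and 37 with *smad3a*. The 26 without it included 2, 0, 0 and 0, but their median depth was 892 UMIs against 13746, and the part of depth in this was not tested.

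Transcripts of *smad3a*, which encodes a SMAD activated by activin receptors, were at 298 CPM in FSH-rich cells (184 to 455) and at 139 CPM in LH-rich cells (115 to 166), a log2 ratio of 1.1 (0.36 to 1.78). The 21 UMIs of the FSH-rich class came from 3 of 7 cells, 11 of them from 1 cell, and without the top cell of each class the ratio was under 2-fold. Other high classes were cluster 17 (203 CPM), neutrophil-like cells (172 CPM) and cluster 8 (160 CPM), whereas *gh1*-rich cells were at 4.24 CPM.

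**Figure D3:**
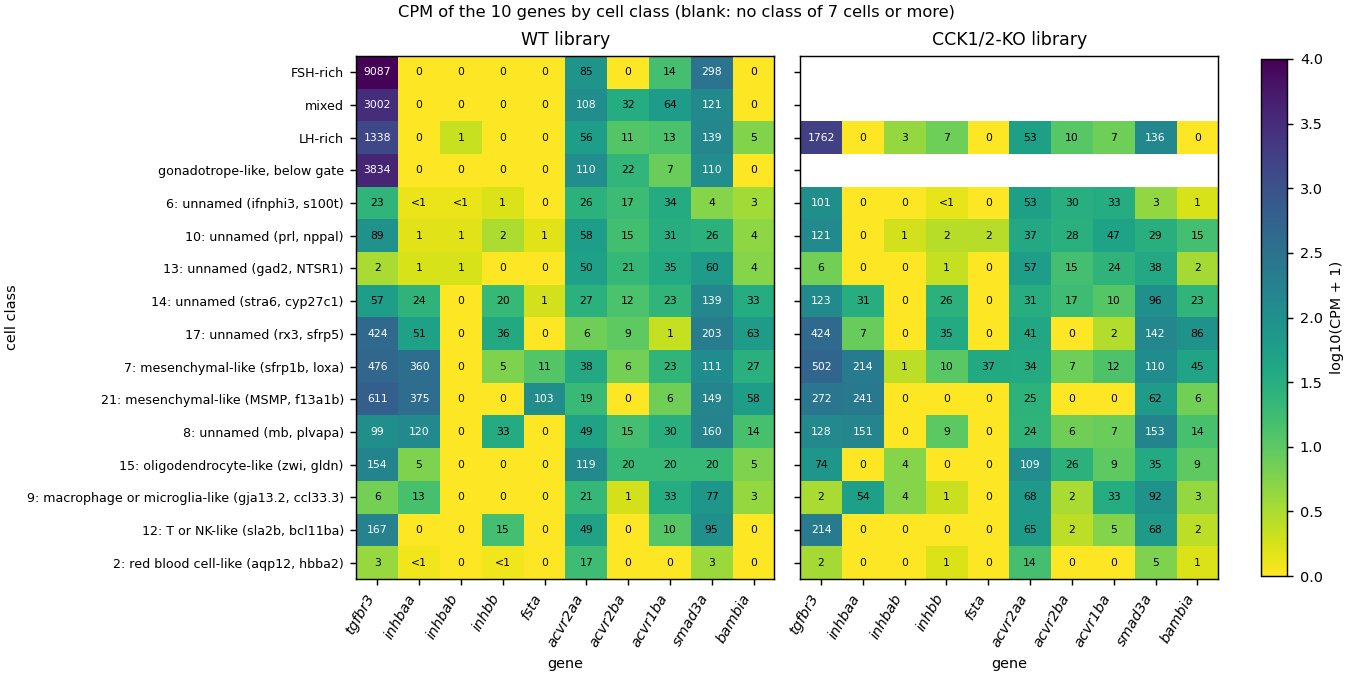
Levels of the 10 genes (columns) in cell classes (rows) of the WT and CCK1/2-KO libraries; the number in each field is the CPM and the colour its log10(CPM + 1). Within WT, *tgfbr3* is darkest in the 4 gonadotrope classes, whereas *inhbaa* is at 0 there and at 360 and 375 CPM in the mesenchymal-like clusters.

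Between FSH-rich and LH-rich WT cells, 3 of the 10 genes had the 20 UMIs needed to be compared, and *tgfbr3* and *smad3a* were at least 2-fold higher. Over all 4986 genes compared, 33.8% differed at least 2-fold in either direction between these small classes, and nothing is read from the members' count, since *tgfbr3* was selected on this contrast. A list of 85 other genes of the TGF-beta superfamily was set beside the 10, of which 68 were found by symbol. Of the 16 that could be compared, 2 were at least 2-fold higher in FSH-rich cells and 4 lower. Among the higher ones was the type I receptor gene *tgfbr1a* (99.2 against 16.5 CPM, log2 2.59, 1.04 to 4.0), but its 7 UMIs of FSH-rich cells came from 1 cell. Among the lower ones were *fstl1b* of the follistatin-like genes (56.7 against 164 CPM) and *skib*, a SMAD co-repressor gene (99.2 against 211 CPM).

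In the mutant library, *tgfbr3* remained in LH-rich cells. The 19 cells ran from 0 through a median of 826 to 4754 CPM, 4 of them at 0. Together, 531 UMIs in 15 cells (78.9%, or 59.7% of the 15 cells deep enough for thinning) gave 1762 CPM (1615 to 1918). The range of the 19 cells lay within that of the WT LH-rich cells, and the sum was 0.40 higher on the log2 scale (0.25 to 0.55). Without the top mutant cell, which held 25.2% of the UMIs, the level was 1453 CPM. Over all gonadotropin-bearing cells the sum was lower in the mutant (log2 −0.25, −0.38 to −0.11), where the WT library included FSH-rich and mixed cells and the mutant library had none.

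Over all kept cells *tgfbr3* stood at 206 CPM in WT and 154 CPM in CCK1/2-KO (log2 −0.42, −0.49 to −0.35), and the ratio was −0.13 when the mutant clusters were weighted to their WT shares. In the LH-rich cells, none of the 3 comparable members was at least 2-fold apart between the libraries, where 29.3% of 5691 genes were. In all gonadotropin-bearing cells, 1 of 4 members was, against 29.4% of 6404 genes. That member was *acvr1ba*, with 22 WT and 2 mutant UMIs (20.4 against 6.63 CPM), and the interval of its log2 ratio ran from −4.76 to 0.40. Of the 22 WT UMIs, 10 lay in mixed cells, which the mutant library lacked. LH-rich cells alone held 11 and 2 UMIs (12.9 and 6.63 CPM), too few to be compared. Over all kept cells, none of 9 members was 2-fold apart, against 13.7% of 19394 genes, and the median log2 ratio of all genes there was 0.24. Within that limit, *bambia* (0.65, 0.36 to 0.93), *acvr2ba* (0.51, 0.20 to 0.82), *acvr2aa* (0.34, 0.19 to 0.49) and *acvr1ba* (0.28, 0.07 to 0.49) were above 0. Weighted to WT cluster shares, *bambia* was at −0.017 and *acvr1ba* at −0.30. The weighting also left out clusters with under 10 cells in either library. Among them was cluster 22, with 6 WT cells, which held 85 of the 339 mutant *acvr1ba* UMIs. The parts of weighting and of leaving clusters out were not told apart. By contrast, *smad3a* (0.03, −0.10 to 0.15) and *inhbb* (−0.12, −0.57 to 0.32) had intervals that included 0. The ratio of *inhbaa* was 0.25 (0.09 to 0.42) in the kept cells, −0.55 when weighted and −0.21 with predicted doublets kept, since 2 WT barcodes removed as doublets held 264 of the 956 WT UMIs.

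Of the other superfamily genes over all kept cells, 5 of 56 were at least 2-fold higher in the mutant library and 1 lower, against 1947 higher and 710 lower of 19394 genes (13.7% in all). The higher ones included *tgfb2* for a TGF-beta ligand (57.7 against 25.2 CPM) and *id1*, a target gene of BMP signalling (155 against 76.4 CPM). In the gonadotropin-bearing cells 4 of 26 were higher and 7 lower, where 676 of 6404 genes were higher and 1207 lower (29.4% in all). Among the higher were the BMP receptor gene *bmpr2b* (391 against 149 CPM, log2 1.39, 1.03 to 1.74) and *tgif1*, a co-repressor gene (305 against 123 CPM, 1.32, 0.92 to 1.71). Among the lower were the SMAD co-repressor gene *skia* (79.6 against 236 CPM, −1.57, −2.24 to −0.96), the SMAD gene *smad9* (1 against 27 UMIs, −2.92, −8.27 to −0.32) and *tgfbr1a* (2 against 29 UMIs, −2.02, −5.13 to −0.04). These sums include the FSH-rich and mixed cells of WT, which the mutant library lacked. In LH-rich cells alone, *bmpr2b* (log2 1.26), *tgif1* (1.33) and *skia* (−1.53) were past 2-fold as well. By contrast, *smad9* and *tgfbr1a* were not among the genes past 2-fold there, and 14 of the 29 WT *tgfbr1a* UMIs lay in LH-rich cells. In the *gh1*-rich cluster, *bmpr2b* was likewise higher in the mutant (log2 1.25). There, *skia* (1.03), *smad9* (1.38) and *tgfbr1a* (1.08) were higher instead of lower, where 25.8% of 11017 genes were past 2-fold in either direction.

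Cluster 6, rich in the growth hormone transcript *gh1*, had the widest difference in *tgfbr3* between the libraries among the 6 cell groups compared. In WT, 25 of 180 cells held 70 UMIs (22.8 CPM, 17.8 to 28.8), and in CCK1/2-KO 59 of 158 cells held 264 UMIs (101 CPM, 89.5 to 114), a log2 ratio of 2.15 (1.77 to 2.55). The share of cells with a UMI was 13.9% in WT and 37.3% in the mutant, and 2.25% and 7.47% after thinning to 1000 UMIs, with median depths of 12558 and 14502 UMIs. Leaving out the top cell of each library gave 2.39, and counting CPM without hormone and mitochondrial UMIs gave 1.83. The summed somatotrope (growth hormone cell) markers in this cluster were 315911 CPM in WT and 152457 in CCK1/2-KO. The gonadotrope list stood at 96.1 and 127 CPM, with 1 and 2 of its 6 genes at 0, and the mesenchymal list at 31.9 and 81.0 CPM, with 1 and 0 of its 7 genes at 0, and their part in the result was not tested. Of the 21 marker lists, only the somatotrope, red blood cell (6224 and 4325 CPM) and pituicyte lists were lower in the mutant cluster. All the other lists were higher there. They included the oligodendrocyte (1078 and 2850 CPM), neuron (614 and 1156 CPM), thyrotrope (416 and 934 CPM) and radial glia lists (52.5 and 136 CPM). The lactotrope (504 and 657 CPM) and epithelial lists (565 and 763 CPM) were among them too. Within the mutant cluster, the 59 cells with *tgfbr3* had a median depth of 19613 UMIs, and the 99 without had 12415. Those with *tgfbr3* were lower in *gh1* (138590 against 164846 CPM) and *lhb* (6.20 against 12.9 CPM). They were higher in *cga* (129 against 98.0 CPM) and *col1a2* (13.96 against 9.88 CPM). The *lhb* and *col1a2* levels are low and have no interval here, so no difference is read from them, and the part of depth was not tested.

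In this cluster 2 of 5 members, *tgfbr3* and *acvr2aa* (log2 1.02, 0.61 to 1.44), were at least 2-fold higher in the mutant, against 25.8% of 11017 genes in either direction and a median over all genes of 0.41. There, *acvr2aa* stood at 26.1 CPM in WT and 53.0 CPM in CCK1/2-KO. In cluster 10, rich in the prolactin transcript *prl*, 1 of 6 members was past 2-fold, against 15.8% of 10430 genes. It was *bambia*, at 3.78 and 14.6 CPM (1.95, 0.61 to 3.46), from 17 mutant UMIs in 4 cells, 10 of them in 1 cell. Without the top cell of each library, *bambia* was at 2.71 CPM in WT and 6.08 CPM in CCK1/2-KO. There *tgfbr3* was at 88.5 and 121 CPM (0.45, 0.12 to 0.78), and *acvr2aa* was lower in the mutant (57.7 and 36.9 CPM, −0.65, −1.19 to −0.12), opposite in sign to its ratio in the *gh1*-rich cluster. In mesenchymal-like cluster 7, 1 of 7 members was past 2-fold, against 22.8% of 8021 genes. This was *fsta* (1.76, 0.80 to 2.86), with 11 UMIs in 3 WT cells and 49 in 2 mutant cells, 46 of these in 1 cell. There *tgfbr3* was at 476 and 502 CPM (0.08, −0.09 to 0.25) and *inhbaa* was lower in the mutant (360 and 214 CPM, −0.75, −0.98 to −0.52), with 44.6% of the mutant UMIs in 1 cell.

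**Figure D4:**
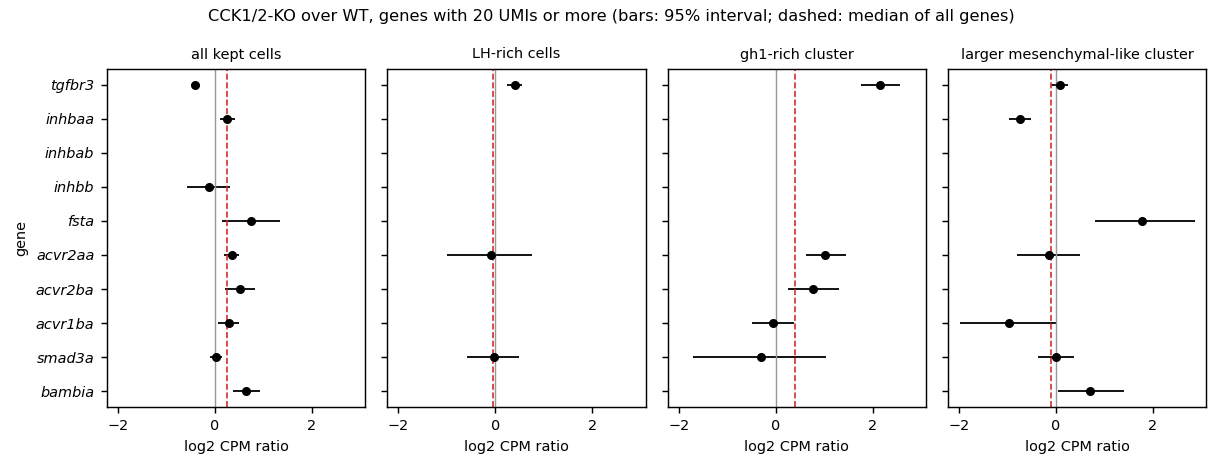
Log2 ratio of CPM in CCK1/2-KO over WT (horizontal axis) for each gene with at least 20 UMIs, in 1 panel per cell group; points are ratios of sums, bars 95% counting intervals and the dashed line the median of all genes. The widest ratio of *tgfbr3* is 2.15 in the *gh1*-rich cluster.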

How the data were processed

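Single-cell libraries of WT and CCK1/2-KO male pituitaries were deposited as raw UMI counts per gene and barcode. Per the submitters' processing notes the authors used Cell Ranger, Seurat and GRCz11, and the annotation release is not given in the sources used here. The deposited counts hold 5236 WT and 3755 mutant barcodes (22358017 and 15910570 UMIs), none under 500 UMIs. Barcodes with under 200 genes or over 20% mitochondrial UMIs were left out, as were predicted doublets at 0.8% per 1000 cells (206 and 101, by Scrublet score, whose automatic threshold marked 0 and 1).

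Both libraries were clustered together (2000 variable genes, 30 components, 20 neighbours, Leiden resolution 1, 28 clusters) without hormone genes, the superfamily list and mitochondrial genes. Clusters were named only from marker lists of 21 cell types. A name was withheld for low depth, or where hormone or leading genes went against it. UMIs were summed per class and library and given as CPM with exact Poisson intervals. Ratios have exact conditional intervals, and a count of 0 was read as up to 3 counts. A gene was compared where both classes together held at least 20 UMIs and was counted when it was at least 2-fold apart. The genes named were the 10 members and, of list genes with at least 20 UMIs in WT gonadotropin-bearing cells, those at least 2-fold apart with an interval off 0 (up to 10 for FSH-rich over LH-rich cells, up to 5 each for the mutant over WT in gonadotropin-bearing and in all cells, widest first). The nearest patterns were sought among genes with at least 50 UMIs in WT gonadotropin-bearing cells, over the 3 gonadotropin classes and clusters with at least 20 other WT cells. One gene that the rule names is not reported here. Members and lists were chosen with earlier results of these data known. Alternatives were other gates, cuts, filters, denominators, weightings and Leiden resolutions. The scripts were tested on simulated data. Software was Python 3.11.15, scanpy 1.11.5, numpy 2.4.6, scipy 1.17.1, pandas 2.3.3, scikit-learn 1.9.0, leidenalg 0.10.2, igraph 0.11.9 and matplotlib 3.10.9.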

Additional observations from a re-analysis of the deposited data

Results flagged for a closer look

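In several clusters with a median depth of at least 2000 UMIs, *tgfbr3* or the activin receptor gene *acvr2aa* was at least 2-fold apart between CCK1/2-KO and WT with a counting interval off 0, and the sign differed from cluster to cluster. These differences between clusters rest on 1 library per genotype and were not tested. Of all genes with at least 20 UMIs, 23.7% were at least 2-fold apart with an interval off 0 in cluster 6, 12.5% in cluster 8, 24.3% in cluster 9, 14.1% in cluster 14, 15.5% in cluster 15, 19.6% in cluster 17 and 22.5% in cluster 21, so that such differences were common in these clusters. For *tgfbr3*, the log2 ratio of CCK1/2-KO over WT was 2.15 in *gh1*-rich cluster 6 (22.8 to 101 CPM) and 1.11 in cluster 14, led by *stra6* (57.0 to 123 CPM, with 41.7% of the mutant UMIs in 1 cell). It was −1.05 in the oligodendrocyte-like cells of cluster 15 (154 to 74.4 CPM) and −1.17 in the mesenchymal-like cells of cluster 21 (611 to 272 CPM). Cluster 15 held 31 WT and 17 mutant UMIs, with 41.2% of the mutant ones in 1 cell. In cluster 21, 1 cell held 36.4% of the mutant UMIs. For *acvr2aa* it was 1.02 in cluster 6 (26.1 to 53.0 CPM) and 1.68 in the macrophage or microglia-like cells of cluster 9 (21.1 to 67.7 CPM). It was 2.69 in cluster 17, led by *rx3* (6.35 to 41.1 CPM, from 5 WT UMIs), and −1.04 in cluster 8, led by *mb* (48.9 to 23.9 CPM). Other members passed the same limits too. Lower in the mutant were *acvr1ba* (−2.01) and *inhbb* (−1.85) in cluster 8, *smad3a* in cluster 21 (−1.27) and *inhbaa* in cluster 17 (−2.77). The *inhbaa* ratio in cluster 17 rested on 40 WT and 4 mutant UMIs, with 47.5% of the WT ones in 1 cell. In cluster 21, *fsta* was lower as well, with 32 WT UMIs, all in 1 cell, and 0 mutant UMIs. Higher were *inhbaa* in cluster 9 (1.99, with 67.3% of the mutant UMIs in 1 cell), *bambia* in cluster 10 and *fsta* in cluster 7.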

How the results depend on the processing

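Of 231 alternative values, 197 stayed near the reported value (inside its interval for levels and ratios), 27 moved and 7 turned their direction. The moves fell mostly on the main *tgfbr3* results and the count of members apart, where 47 values stayed and 20 moved. For the other results, 150 stayed, 7 moved and 7 turned. No paired analysis was possible because each genotype had 1 library. Adding the gonadotrope-like cells below the gate, and the alternatives for the *gh1*-rich cluster, were chosen after seeing the data. The log2 ratio of *tgfbr3* in FSH-rich over LH-rich WT cells was 2.56 with a gate of 0.5%, 2.98 with a gate of 2%, 2.58 without the top cell of each class and also 2.58 with the cells below the gate, 2.05 with cuts at 80 and 20% and 1.61 with 1 cut at 50%. The level in FSH-rich cells was 7702 CPM with a gate of 0.5%, 9948 CPM without gonadotropin and mitochondrial UMIs, 7469 CPM without the top cell, 4667 CPM with 1 cut at 50%, 5551 CPM with cuts at 80 and 20% and 7810 CPM with the cells below the gate. In all gonadotropin-bearing WT cells it was 1576 CPM with a gate of 5%, 2449 CPM without gonadotropin and mitochondrial UMIs, 1897 CPM without the top cell and 2288 CPM with the cells below the gate. A gate of 5% left no FSH-rich cell and gave no value for that class. The members at least 2-fold apart between FSH-rich and LH-rich cells numbered 1 without gonadotropin and mitochondrial UMIs, without the top cells or with cuts at 80 and 20%, where *smad3a* was under 2-fold. Over all kept cells, weighting the mutant clusters to WT shares gave CCK1/2-KO over WT log2 ratios of −0.13 for *tgfbr3*, −0.30 for *acvr1ba*, −0.017 for *bambia*, −0.42 for *fsta* and −0.55 for *inhbaa*. The weighting also left out clusters with few cells in either library. Leaving out the top *fsta* cell of each library gave −0.39, and *inhbaa* was at −0.21 with predicted doublets kept and at −0.21 with every barcode. The causes of these changes were not tested, except that 2 removed WT barcodes carried the *inhbaa* UMIs. FSH-rich cells numbered 7, and at their depth a gene with 0 UMIs can stand at up to 42.5 CPM.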

Other observations

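Among the classes that the comparisons did not cover, *acvr1ba* was at 221 CPM in the mutant cells of cluster 22, with 85 UMIs in 8 of 33 cells. One of these cells held 40 of the UMIs, and without it the level was 146 CPM. The 33 cells had a median depth of 998 UMIs, and the 6 WT cells of the cluster held 5 UMIs (54.1 CPM). In the mutant macrophage or microglia-like cells, *inhbaa* was at 53.5 CPM, or 18.0 CPM without 1 cell that held 33 of its 49 UMIs. In the mutant LH-rich cells, 1 cell held 5 CCKBR UMIs together with *tgfbr3*, which 15 of the 19 cells held. There, 27 of the 41 *smad3a* UMIs lay in 1 cell. Shallow clusters outside the 6 cell groups compared were lower in *tgfbr3* in the mutant. Cluster 0 (median depth 680 UMIs) held 33 WT and 1 mutant UMIs, a log2 ratio of −3.55 (−8.90 to −0.98). Cluster 5 (median depth 691 UMIs) held 44 and 6 UMIs, a log2 ratio of −1.90 (−3.42 to −0.67). These ratios were not tested.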
